A study of Mus musculus with 12 samples.

Results

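The data described here compare JV101 with saline in mice that had 5/6 nephrectomy (NX), the removal of most kidney tissue as a model of chronic kidney disease. The comparison holds 6 of the 12 RNA-seq libraries of the study, 3 from NX mice given JV101 and 3 from NX mice given saline, chosen by their labels and described across all genes. All mice were wild-type C57BL6, and the RNA came from cardiomyocytes isolated from the heart 16 weeks after surgery. The other 6 libraries came from sham-operated mice, 3 given JV101 and 3 given saline, and are used here only to set the same contrast beside the one after nephrectomy. The title of the study speaks of recapping telomeres by gene therapy in cardio-renal syndrome. The labels give neither the content nor the dose of JV101, nor the age or sex of the mice. Nothing in them states that replicates are separate animals or cultures, and p-values here reflect the spread among libraries only, which may be technical.

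Cardiomyocytes are the contractile cells of the heart and run mainly on fatty acids, which the nuclear receptor PPARα and its target genes help to burn. The heart is covered by the mesothelium (epicardium), a single sheet of epithelial cells that make keratins, mesothelin, mucin 16 and uroplakins. A preparation of isolated cardiomyocytes can carry RNA from this sheet, from blood cells and from neighbouring tissue. Telomeres are capped by shelterin, a complex of 6 proteins encoded by 7 genes in mice.

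The 6 NX libraries held 26.4 to 33.8 M counts. Genes of the mitochondrial genome took 51.1%, 44.9% and 66.5% of the counts in the libraries of NX saline, in replicate order as throughout, and 52.9%, 41.1% and 38.3% in those of NX JV101, a difference that an exact permutation test did not separate from the spread (2-sided p = 0.3, the smallest possible being 0.1). Counts from nuclear genes were therefore lowest in NX saline replicate 3, at 8.86 M, against 14.5 to 19.9 M in the other NX libraries. Libraries of the 2 groups correlated with each other (r 0.953 to 0.971, across genes) within the range seen inside a group (0.948 to 0.974). The labelled cell type fitted its markers: all 20 ventricular cardiomyocyte markers were measured, and their summed level was 53870 to 75790 CPM (counts scaled to a common library size with TMM factors) in NX saline and 47660 to 66950 in NX JV101. Per transcript length, *Mb* (myoglobin) was at 5566 ± 2064 FPKM and *Myh6* (the main adult myosin heavy chain) at 2025 ± 568 FPKM in NX saline, against 6.31 ± 0.947 FPKM for mesothelin, *Msln* (mean ± SD, n = 3).

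By edgeR's quasi-likelihood test 0 of 14412 genes (0%) passed an adjusted p of 0.05 between NX JV101 and NX saline, and the smallest adjusted p was 0.999959. At an unadjusted p under 0.05 there were 345 genes (2.39%), 149 of them higher (1.03%) and 196 lower (1.36%). DESeq2 called 4 genes (0.0176% of those it tested), the mesothelial genes *Lrrn4*, *Muc16* and *Krt19* and the lymphoid transcription factor gene *Spib*, all lower with JV101 (adjusted p = 0.0119 for each). The limma fits of log2 FPKM and of voom values with sample weights called 0. For 652 genes (4.52%) all 3 NX JV101 libraries lay above all 3 NX saline libraries, and for 532 (3.69%) all lay below, 1184 (8.22%) in all. In an exact permutation test of 3 against 3 libraries, full separation gives the smallest possible 2-sided p, 0.1. The 8.22% lies under that, as the 2.39% lies under the 0.05 of its threshold. Lack of overlap in a gene is therefore a description here and not evidence of a difference. The shares by direction are the background for the counts of non-overlapping genes given for each list. The median log2 fold change (NX JV101 minus NX saline, as throughout) over all genes was 0.01. Among the 6869 genes of at least 10 CPM the median standard error (SE) was 0.19, so that a 1.30-fold difference made 2 SE, and 29 of them (0.422%) differed by more than 2-fold.

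**Figure D1:**
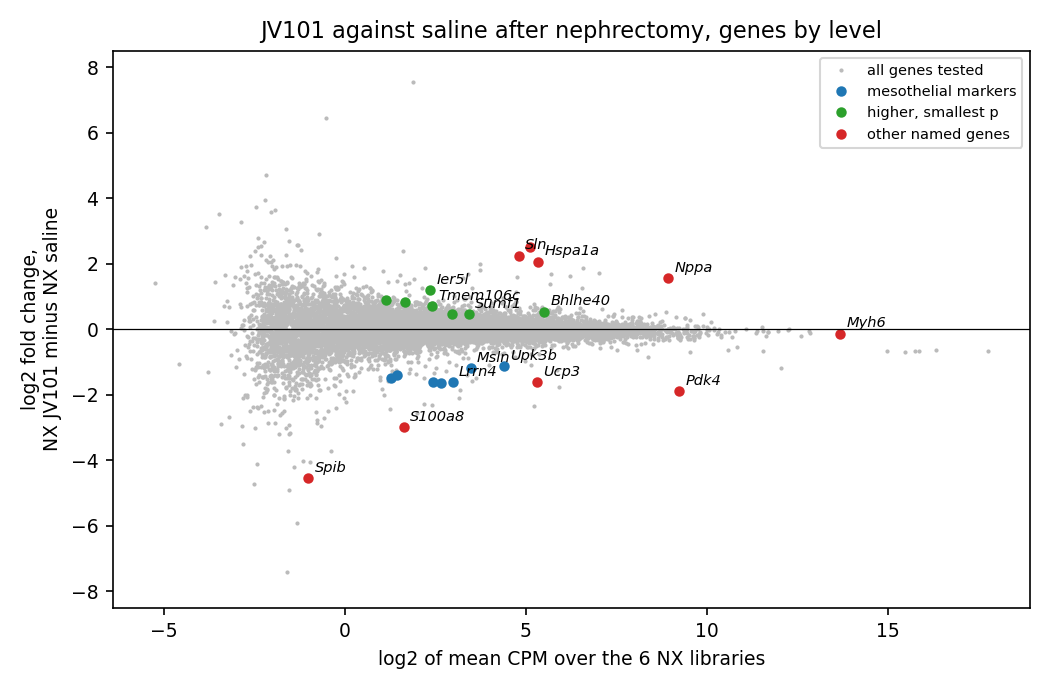
Each point is a gene, with its mean level over the 6 NX libraries (log2 CPM) on the x axis and its log2 fold change, NX JV101 minus NX saline, on the y axis. Fold changes spread widely at low levels. The mesothelial markers shown (*Lrrn4* and *Msln* are labelled) lie between −1.13 and −1.64, while *Myh6*, at −0.13, is one of the most abundant nuclear genes.

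Mesothelial markers lay on the lower side. All 18 were tested and all 18 had a negative log2 fold change, with a median of −1.14, and 8 of the 18 had all NX JV101 libraries below all NX saline libraries, against 3.69% of all genes. An unadjusted edgeR p under 0.05 was reached by 12 of the 18, all lower, against 1.36% of all genes. The summed level of the 18 was 143, 110 and 203 CPM in NX saline and 70.6, 93.3 and 68.9 in NX JV101, and no marker of the list was at 0 in either group's mean. In RNA from bulk samples, fewer cells of a type and less RNA per cell cannot be told apart. The markers were chosen with earlier results of these data known, so their count is a description.

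For 7 of the 13 mesothelial genes that matched the RefSeq promoter table (GRCm38.p6, an older assembly than that of the counts), the 300-base window around a gene start held the letters AGGTCA on either strand, the 6 bases that nuclear receptors such as PPAR recognise. These were 8 of 15 windows (53.3%), against 16.3% of all 32841 windows. Among windows of the fasting and PPARα target genes described below, 27.3% held these letters. TEAD letters, GGAATG, were in 33.3% of the mesothelial windows and 14.7% of all. The other 5 motifs searched were AP-1 sites with the letters TGANTCA (6.67% of the mesothelial windows and 7.81% of all), E-boxes with the letters CACGTG (6.67% and 7.15%), D-boxes with the letters TTATGNAA (0% and 3.39%), GC boxes with the letters GGGCGG (33.3% and 35.7%) and E2A-like sites with the letters CAGGTG (33.3% and 20.2%). AGGTCA is shown because its share differed most from that of all windows, a choice made after the counts were seen, and a match is a description of letters and not a binding site. The 250 bases before the start of 4 mesothelial genes that were lower with JV101 are printed 5′ to 3′ on the gene's strand, with AGGTCA in capitals. They are chr2:132880863-132881112 (minus strand) for *Lrrn4*, chr5:136038246-136038495 (plus) for *Upk3b*, chr15:102004343-102004592 (minus) for *Krt8* and chr15:102027966-102028215 (plus) for its filament partner *Krt18*.
Lrrn4: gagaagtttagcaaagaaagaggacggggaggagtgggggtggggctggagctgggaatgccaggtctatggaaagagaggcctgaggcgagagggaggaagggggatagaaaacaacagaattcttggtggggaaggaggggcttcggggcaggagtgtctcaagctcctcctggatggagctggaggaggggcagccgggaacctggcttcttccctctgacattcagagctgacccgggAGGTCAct
Upk3b: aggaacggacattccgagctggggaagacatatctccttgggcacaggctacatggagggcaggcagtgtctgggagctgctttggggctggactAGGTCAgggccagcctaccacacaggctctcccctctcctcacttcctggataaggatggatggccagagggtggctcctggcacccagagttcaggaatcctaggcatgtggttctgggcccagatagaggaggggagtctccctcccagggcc
Krt8: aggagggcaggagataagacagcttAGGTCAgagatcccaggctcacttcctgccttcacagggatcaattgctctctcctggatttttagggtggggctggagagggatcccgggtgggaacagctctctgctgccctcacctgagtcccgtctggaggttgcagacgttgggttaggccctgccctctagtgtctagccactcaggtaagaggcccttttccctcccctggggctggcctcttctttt
Krt18: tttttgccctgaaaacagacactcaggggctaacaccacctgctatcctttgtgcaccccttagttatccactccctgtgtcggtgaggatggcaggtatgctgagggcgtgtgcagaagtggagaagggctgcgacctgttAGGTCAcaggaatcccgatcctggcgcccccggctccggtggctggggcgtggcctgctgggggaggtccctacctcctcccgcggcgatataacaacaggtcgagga
The match lies 2 bases before the annotated start in *Lrrn4*, 149 in *Upk3b*, 219 in *Krt8* and 102 in *Krt18*.

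*Lrrn4*, a leucine-rich repeat membrane protein gene of mesothelium, was at 12.6, 6.41 and 16.8 CPM in NX saline and at 3.78, 3.09 and 4.81 in NX JV101. All 3 NX JV101 libraries lay below the lowest NX saline library (log2 fold change −1.61, SE 0.32). *Muc16*, the membrane mucin of serous surfaces, was at 9.92, 6.50 and 12.1 CPM against 4.02, 2.50 and 2.67 (−1.64, SE 0.32). *Krt19*, a keratin of simple epithelia, was at 6.91, 5.75 and 11.9 CPM against 2.62, 3.63 and 1.72 (−1.61, SE 0.34). Neither gene overlapped between the groups. *Msln* was at 16.3, 10.2 and 19.8 CPM against 7.19, 6.74 and 6.51 (−1.18, SE 0.25). *Upk3b*, a uroplakin of the mesothelial surface, was at 30.5, 17.3 and 38.7 CPM against 14.2, 13.7 and 11.7 (−1.13, SE 0.25). In these 5 genes NX saline replicate 3 was the highest library and replicate 2 the lowest of its group, while the NX JV101 libraries of *Msln* lay within 1 CPM of each other.

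Keratins *Krt8*, *Krt18* and *Krt7* had log2 fold changes of −1.48 (SE 0.46), −1.16 (SE 0.43) and −1.39 (SE 0.42). *Krt8* did not overlap, at 3.07, 3.36 and 4.39 CPM against 1.53, 1.74 and 0.598. In *Krt7* and *Krt18* the lowest NX saline library was replicate 2, at 1.58 and 1.24 CPM, below the highest NX JV101 library at 1.91 and 1.48. The claudin gene *Cldn15* was at 7.004, 9.66 and 12.9 CPM against 2.59, 5.99 and 3.71, again without overlap. At the other end of the list, *Wt1*, a transcription factor of epicardium that other cardiac cells can also express, was at 5.61, 7.27 and 11.4 CPM against 2.79, 9.17 and 5.98 and overlapped (−0.43, SE 0.53). The smallest difference of the 18 was −0.22.

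Among genes outside the list, 5 of the lower genes with the smallest p are set beside these markers. *Lrp2*, the endocytic receptor megalin, was at 2.63, 1.93 and 4.06 CPM in NX saline and 0.920, 1.34 and 0.823 in NX JV101 (−1.46, SE 0.33). The heparan sulphate proteoglycan gene *Gpc3* was at 10.1, 7.07 and 17.1 CPM against 5.04, 5.70 and 5.36 (−1.08, SE 0.32). *Pkhd1l1*, a large membrane protein gene, was at 24.6, 13.7 and 25.6 CPM against 11.4, 9.71 and 9.22 (−1.07, SE 0.27). For the complement gene *C2* the values were 5.13, 4.69 and 9.42 CPM against 3.17, 3.04 and 2.64 (−1.11, SE 0.28). All 4 kept the groups apart, and in each of them NX saline replicate 3 was the highest library and replicate 2 the lowest of its group. The same held for *Lrrn4*, *Muc16*, *Krt19*, *Msln* and *Upk3b*. It did not hold for *Krt8*, *Cldn15* and *Wt1*, where replicate 2 was not the lowest. The uncharacterised transcript *Gm26944* was also lower without overlap (−1.43, SE 0.41), but there NX saline replicate 3 was the lowest of its group at 1.03 CPM.

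**Figure D2:**
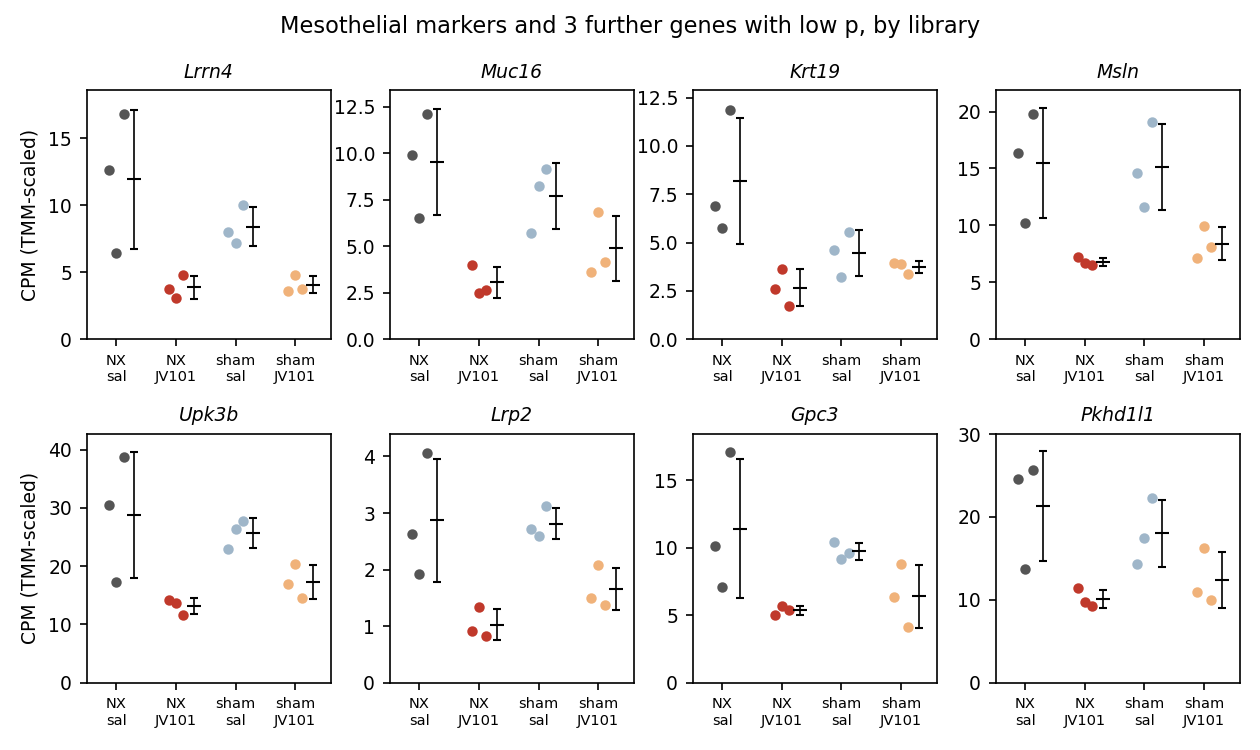
Levels in CPM (y axis, from 0) of 8 genes in each library of NX saline, NX JV101, sham saline and sham JV101, as points, with the mean and SD of 3 libraries beside them. In all 8 panels the 3 NX JV101 points lie below the 3 NX saline points. *Lrrn4*, *Msln*, *Upk3b*, *Lrp2* and *Gpc3* also separate after sham surgery.

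NX saline replicate 3 stood apart in several markers at once, with the highest mitochondrial share and the highest summed level of mesothelial (203 CPM), B cell (36.2), T and NK cell (7.31) and erythroid (242) markers in the comparison. Without it the mesothelial median was −0.86, and over the 6 fits that left out 1 library each it stayed between −1.33 and −0.86. *Lrrn4* stayed between −1.91 and −1.31. The part of the other markers in this result was not tested.

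B cell markers were lower with JV101 as well, at very low levels. Of 16 markers 13 were tested, 12 of them lower, with a median of −2.11. In 8 the groups did not overlap, all lower, against 3.69% of all genes. *Spib*, a transcription factor of B cells and plasmacytoid dendritic cells, had 0.666, 0.632 and 1.57 CPM in NX saline and 0.068, 0.047 and 0 in NX JV101, that is 72 counts against 4 over 3 libraries each. *Blk*, a B cell kinase, had 49 against 5, and *Pax5*, the factor that keeps B cell identity, 74 against 16. NX saline replicate 3 was the highest library in these 3 genes. The summed level of the list overlapped, at 13.9 to 36.2 CPM in NX saline and 12.1 to 22.5 in NX JV101, where *Ebf1*, which mural and fat cells also express, makes up part of it. Without NX saline replicate 3 the median was −1.62. Under a filter of 5 CPM in 3 libraries, which removes most of the list, what was left had a median of 0.43. *Ebf1*, the 1 higher marker (0.45 without this filter), was the only tested member whose group mean reached 5 CPM after nephrectomy. The 0.43 is therefore not a change of sign of the 12 lower markers.

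Neutrophil markers were lower in 9 of 10 tested (12 in the list), with a median of −1.59. In 2 the groups did not overlap, all lower, against 3.69% of all genes. With JV101 after sham surgery, 9 of the 10 were higher, with a median of 1.85. *S100a8*, a calcium-binding protein gene of neutrophils, was at 6.78, 7.53 and 2.22 CPM in NX saline and at 0.715, 1.34 and 0.025 in NX JV101 (−2.99, SE 1.01). *Cxcr2*, the chemokine receptor that draws neutrophils, had 61 counts against 4. Here NX saline replicate 3 was not the high library. Summed, the list came to 13.9 to 32.6 CPM in NX saline and 6.73 to 18.3 in NX JV101, which overlapped. T and NK cell markers had 8 of 16 members tested, 6 lower and 2 higher, and their median of −0.88 became 0.35 without NX saline replicate 3. Erythroid genes were lower in 5 of 5 tested (median −1.37), with sums of 80.1 to 242 CPM against 39.9 to 87.6 and 0 members free of overlap.

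The airway epithelium list also holds surfactant genes of the lung, such as *Sftpa1*, and does not cover other neighbouring tissue. Of 10 markers 7 were tested, all lower, but 0 of them separated the groups. The club cell secretoglobin gene *Scgb1a1* was at 0, 108 and 80.1 CPM in NX saline and at 33.3, 4.10 and 0.025 in NX JV101, so that 1 library of each group had almost none. Summed, the list was highest in NX saline replicate 2 (399 CPM), the library with the lowest mesothelial sum of its group. It was 0.380 CPM in NX saline replicate 1, where mesothelial markers came to 143. In NX JV101 the airway sums were 148, 6.50 and 0.125 CPM, beside mesothelial sums of 70.6, 93.3 and 68.9. Whether neighbouring tissue had a part in the mesothelial difference was not tested.

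**Figure D3:**
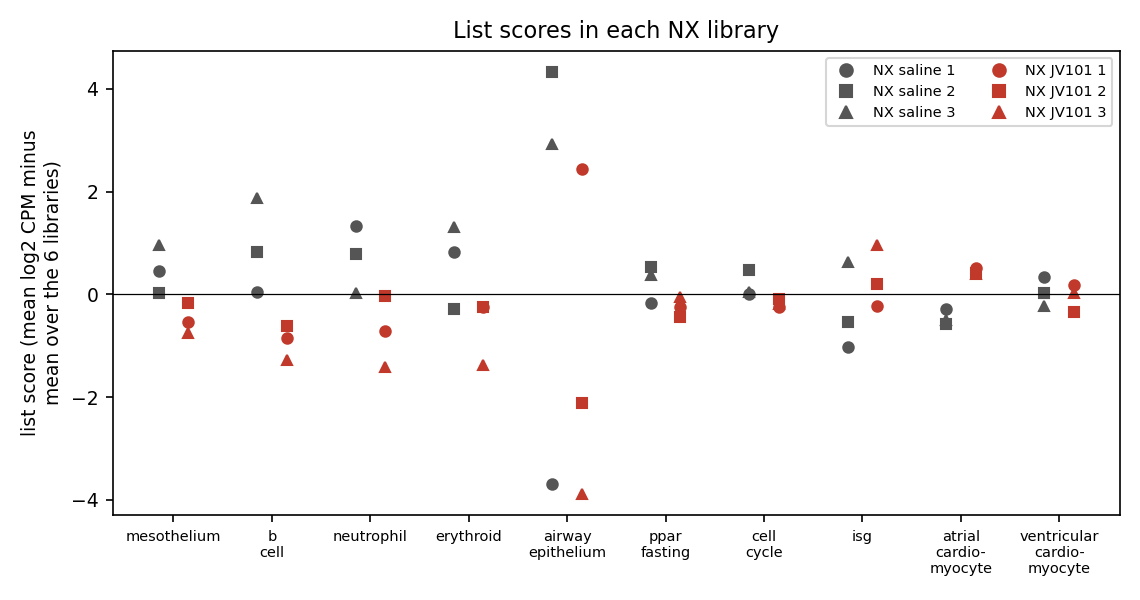
For 10 lists, each point is the mean over tested members of log2 CPM in 1 library minus the mean over the 6 NX libraries (y axis), with NX saline in grey and NX JV101 in red and the symbol giving the replicate. Mesothelial, B cell, neutrophil, cell cycle and atrial scores do not overlap between the groups. Airway scores range from −3.70 to 4.33 within NX saline, and ventricular scores overlap.

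The other cell types of the heart wall had medians nearer 0. Fibroblast markers were higher in 14 of 17 (median 0.30, 1 free of overlap) and mural cell markers in 12 of 13 (0.38, 0 free of overlap). Endothelial markers had a median of 0.09 and macrophage markers 0.07, with 0 members of either free of overlap. Leaving out NX JV101 replicate 2 turned the fibroblast median to −0.21, the endothelial one to −0.18 and the macrophage one to −0.38. Leaving out NX saline replicate 1 turned the endothelial median to −0.27 and the macrophage one to −0.03, and brought the mural one to 0.19. Over the 6 fits that each left out 1 library, the upper ends were 0.51 for fibroblast, 0.51 for endothelial, 0.34 for macrophage and 0.52 for mural markers. Ventricular cardiomyocyte markers had a median of −0.08, with 7 higher and 13 lower and 0 free of overlap, and ran from −0.20 to 0.11 over these fits. *Myh6* was at 16234, 12449 and 12569 CPM in NX saline and 15937, 7252 and 14462 in NX JV101 (−0.13, SE 0.39), and the calcium pump gene *Atp2a2* and cardiac actin *Actc1* were at −0.12 (SE 0.29) and −0.19 (SE 0.27). NX JV101 replicate 2 had the lowest *Myh6* of the 6.

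**Figure D4:**
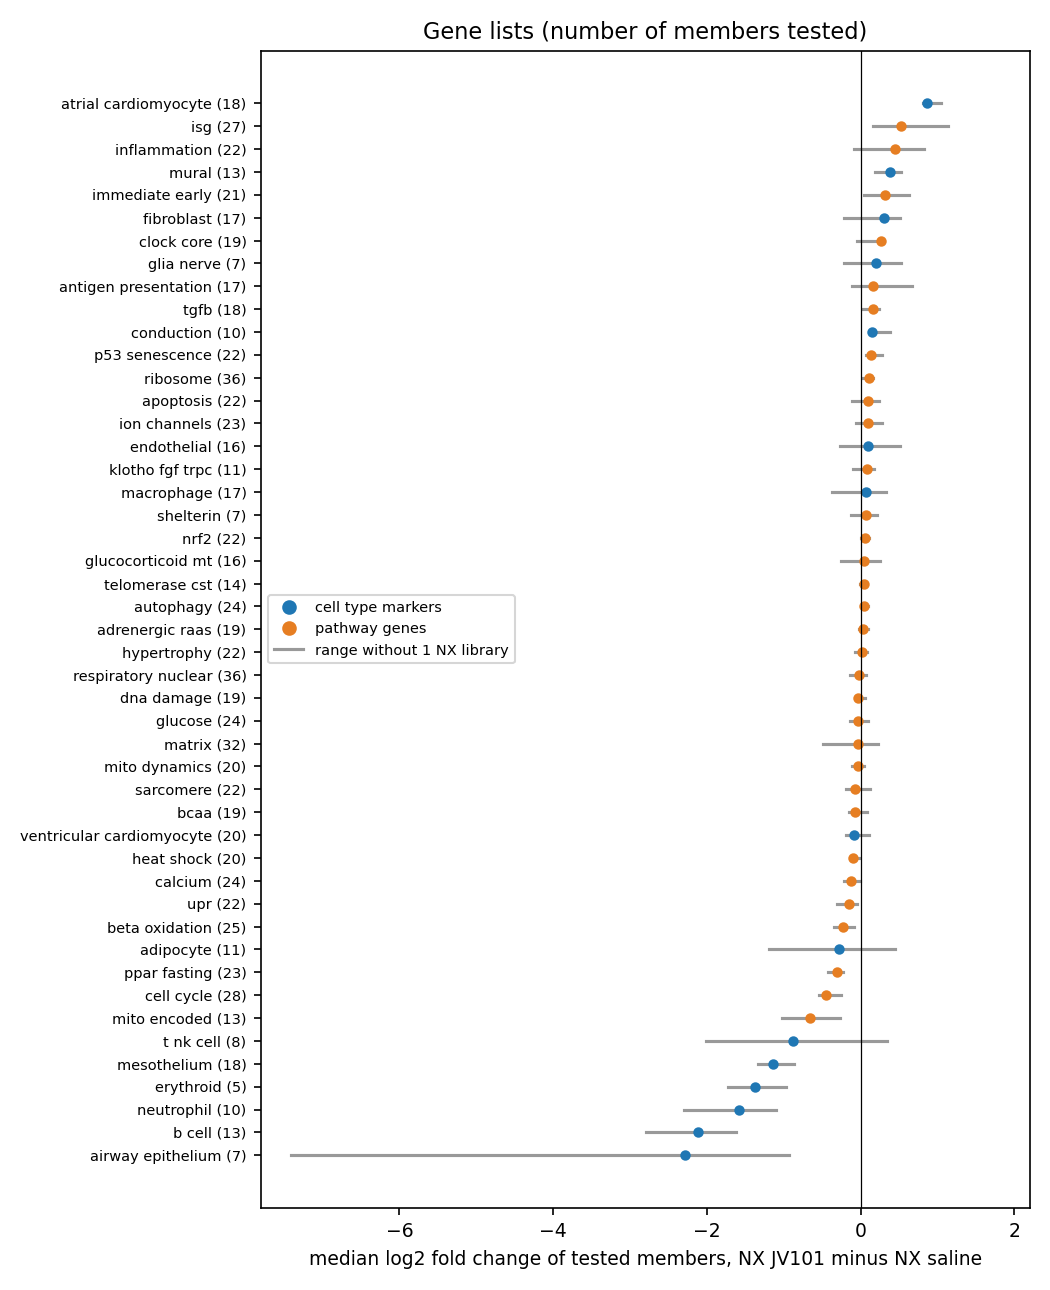
Median log2 fold change (x axis, NX JV101 minus NX saline) of the tested members of 47 lists, with the number tested in brackets and a grey line for the range over 6 fits that each left out 1 NX library. Airway, B cell, neutrophil, erythroid and mesothelial markers lie lowest and atrial markers highest, and the airway line is the longest.

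Atrial cardiomyocyte markers lay on the higher side, 17 of 18 with a median of 0.87, and 11 of them had all NX JV101 libraries above all NX saline libraries, against 4.52% of all genes. *Dkk3*, a secreted protein gene of atrial myocytes, was at 14.1, 11.8 and 14.3 CPM in NX saline and at 42.4, 41.8 and 36.8 in NX JV101 (1.59, SE 0.80). *Myl4*, the atrial essential light chain, was at 93.5, 39.8 and 50.5 CPM against 164, 294 and 143 (1.71, SE 1.09). *Gja5*, a gap junction gene of atrium, conduction system and arteries, was at 3.58, 3.28 and 3.20 CPM against 5.52, 7.38 and 6.21 (0.92, SE 0.36). The groups did not overlap in these 3 genes. The SE is estimated over all 12 libraries, and within sham saline *Myl4* ran from 8.66 to 345 CPM. The 1 marker on the lower side, *Dhrs9*, a retinol and steroid dehydrogenase gene, had 25 counts in NX saline and 4 in NX JV101. After sham surgery the atrial median was −0.68, and the median of the difference between the 2 contrasts was 1.76, with 0 members passing its test by edgeR.

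Fasting and PPARα target genes were lower in 22 of 23 tested (median −0.30). Of these, 6 did not overlap, all lower, against 3.69% of all genes. *Acot1*, a cytosolic acyl-CoA thioesterase gene induced in fasting, was at 6.69, 10.3 and 12.4 CPM in NX saline and at 4.90, 3.96 and 5.83 in NX JV101 (−0.99, SE 0.34). The lipid droplet gene *Plin5* was at 75.9, 93.6 and 63.4 CPM against 52.5, 53.2 and 55.6 (−0.53, SE 0.22). Both genes kept the groups apart. *Pdk4*, which holds back pyruvate oxidation, was at 161, 1102 and 1603 CPM against 314, 166 and 292 (−1.89, SE 0.66), and the uncoupling protein gene *Ucp3* at 24.6, 66.5 and 89.3 against 27.3, 9.66 and 21.9. NX saline replicates 2 and 3 lay above all NX JV101 libraries in both genes, while replicate 1 lay below them all for *Pdk4* and among them for *Ucp3*. *Cpt1a*, which passes fatty acids into mitochondria, was at −0.44 (SE 0.20). Genes of fatty acid β-oxidation were lower in 24 of 25 (median −0.23), with 1 free of overlap. That gene, *Cpt1b*, is also among the 6 of the PPARα list, and its group means were low (0.75 CPM with saline, 0.29 with JV101). *Cpt1a*, *Cd36*, *Fabp3* and other genes belong to both lists as well, so the β-oxidation list is not a separate observation. The β-oxidation median shrank to −0.08 when NX JV101 replicate 2 was left out and to −0.10 when NX saline replicate 1 was. It reached −0.35 when NX JV101 replicate 1 was left out. Adipocyte markers, several of which heart muscle also expresses, were lower in 11 of 11 (−0.28), with sums that overlapped (273 to 488 CPM against 287 to 385). Their direction rested on single libraries, since the median turned to 0.45 when NX saline replicate 2 was left out and fell to −1.20 when NX JV101 replicate 3 was. On log2 FPKM, where the median of all genes was 0.21 (pseudocount 1) or 0.32 (0.1), the PPARα list came to 0.03 and β-oxidation to 0.10, so both directions turned while staying below the median of all genes. Over the fits without 1 library the PPARα median was −0.42 to −0.23.

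Among genes of 100 CPM or more, *Agpat3*, an acyltransferase gene of phospholipid synthesis, was at 137, 126 and 130 CPM in NX saline and at 98.6, 93.5 and 93.9 in NX JV101 (−0.46, SE 0.18), with the groups apart. Mitochondrially encoded genes were lower in 13 of 13 (median −0.66, and −0.26 without NX saline replicate 3), with 0 free of overlap, and nuclear genes of the respiratory chain had a median of −0.02. Cell cycle genes were lower in 20 of 28, with a median of −0.45 (−0.26 when NX saline replicate 2 was left out). Of these, 6 were free of overlap, all lower, against 3.69% of all genes. *Mki67*, a marker of cycling cells, was at 3.96, 5.40 and 5.36 CPM against 3.00, 3.84 and 3.17 (−0.55, SE 0.28), and the mitotic kinase gene *Aurkb* at 0.444, 0.862 and 0.975 against 0.272, 0.353 and 0.199 (−1.44, SE 0.62). In both, every NX JV101 library lay below every NX saline library. After sham surgery the same list had a median of 0.32. Members of at least 5 CPM in 3 libraries had a median of 0.07 after nephrectomy.

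The 12 higher genes with the smallest p, among those of at least 1 CPM, have varied roles. *Tmem106c*, a transmembrane protein gene, was at 3.87, 4.23 and 4.01 CPM in NX saline and at 7.19, 6.43 and 6.18 in NX JV101 (0.71, SE 0.17). *Sumf1*, which activates sulphatases, was at 8.62, 9.95 and 8.77 CPM against 13.0, 12.4 and 12.04 (0.45, SE 0.12). *Me2*, the mitochondrial NAD-dependent malic enzyme, was at 6.59, 7.01 and 6.07 CPM against 9.60, 9.10 and 8.53 (0.47, SE 0.15). The replicates of these 3 genes were close to each other and the groups did not overlap. *Mdm1*, a centriole protein gene, was at 1.20, 1.90 and 1.52 CPM against 3.51, 2.40 and 2.79 (0.91, SE 0.25). *Hmces*, which shields abasic sites in single-stranded DNA, was at 2.92, 1.64 and 2.33 CPM against 4.09, 4.41 and 3.81 (0.84, SE 0.26), and the Integrator subunit gene *Ints6* at 8.05, 8.11 and 7.96 against 11.1, 9.71 and 11.2 (0.41, SE 0.14). These 3 were also apart. Further higher genes without overlap were *Neurl1a* (0.92, SE 0.29), a ubiquitin ligase gene, *Slc35g1* (1.03, SE 0.34), *Slc25a14* (1.08, SE 0.36), a mitochondrial carrier gene, and *Ier5l* (1.20, SE 0.40). *Bhlhe40*, a repressor that feeds into the circadian clock, was at 32.5, 41.7 and 37.3 CPM against 60.0, 47.4 and 54.8 (0.54, SE 0.18), also without overlap. Core clock genes as a list were mixed, 12 higher and 7 lower with a median of 0.26 that was −0.04 when NX JV101 replicate 1 was left out, and *Nr1d1* was at 48.8, 42.0 and 43.5 CPM against 34.7, 16.9 and 39.0.

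**Figure D5:**
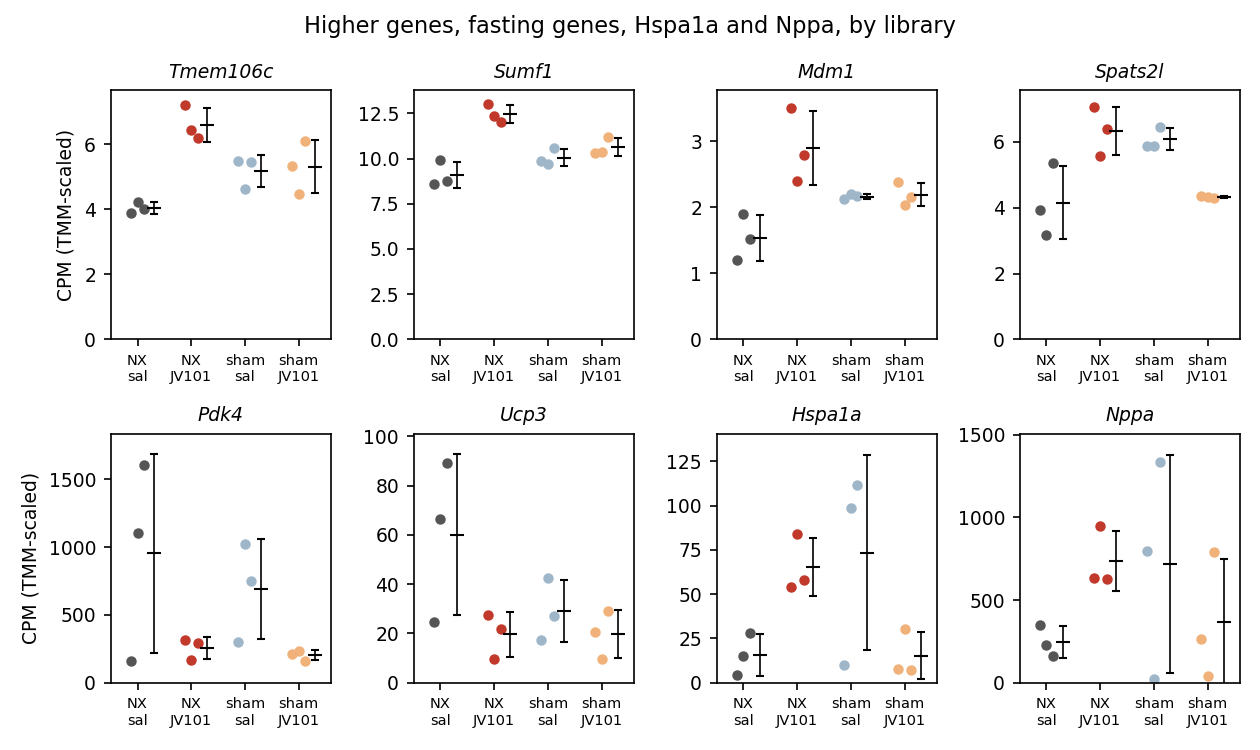
Levels in CPM (y axis, from 0) of 8 further genes in each library of the 4 groups, with the mean and SD of 3 libraries (a bar that would pass below 0 ends at 0). *Tmem106c*, *Sumf1*, *Mdm1*, *Spats2l*, *Hspa1a* and *Nppa* have all NX JV101 points above the NX saline points, and *Pdk4* and *Ucp3* have 2 high NX saline points and 1 low one.

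Inducible Hsp70 genes stood out within the heat shock list, whose 20 members were 7 higher and 13 lower (median −0.09). *Hspa1a* was at 4.28, 14.9 and 27.9 CPM in NX saline and at 54.2, 84.1 and 57.7 in NX JV101 (2.07, SE 0.86), and *Hspa1b* was at 2.52 (SE 1.11). These 2 genes are near-identical copies, so the split of reads between them is uncertain. Their direction was opposite to that of the chaperone gene *Hspd1* (−0.40, SE 0.18) and of *Hspb1* (−0.55, SE 0.32). It was shared by *Dnajb1* (0.48, SE 0.40) and *Dnaja1* (0.44, SE 0.43) of the same list, which overlapped between the groups. After sham surgery *Hspa1a* was at −2.28 (SE 0.86) with JV101, with libraries from 10.2 to 112 CPM in sham saline.

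Interferon-stimulated genes were higher in 25 of 27 tested (median 0.53), but 0 of them separated the groups. With JV101 after sham surgery, 22 of the 27 were lower (median −0.50). *Usp18*, a brake on interferon signalling, was at 1.52, 1.81 and 4.44 CPM in NX saline and at 3.85, 5.80 and 8.70 in NX JV101 (1.26, SE 0.56), and *Ifit1*, an antiviral RNA-binding protein gene, at 1.36, 4.00 and 9.48 against 8.86, 10.5 and 23.7. Within each group replicate 3 was the highest for both. *Iigp1* reached 279 CPM in NX JV101 replicate 3 against 39.1 and 20.1 in replicates 1 and 2. Leaving out replicate 3 of NX JV101 brought the list's median to 0.16, and leaving out replicate 3 of NX saline brought it to 1.14. Immediate early genes were higher in 20 of 21 (median 0.31, and 0.05 without NX saline replicate 1), inflammation genes in 18 of 22 (0.45, and −0.08 without NX JV101 replicate 2) and ribosomal protein genes in 34 of 36 (0.11, and 0.03 without NX JV101 replicate 2), with 0, 1 and 3 members free of overlap.

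The title of the study names telomere capping, and shelterin genes encode the cap. *Terf2ip*, which encodes RAP1, was the 1 of 7 free of overlap, at 9.32, 8.82 and 9.69 CPM in NX saline and at 11.2, 10.7 and 10.2 in NX JV101 (0.20, SE 0.12). *Tinf2*, which ties the complex together, was at 6.59, 5.61 and 7.42 CPM against 7.32, 8.13 and 7.55 (0.23, SE 0.16) and overlapped. For *Terf1*, the telomere DNA-binding protein TRF1, the values were 1.81, 2.82 and 3.90 CPM against 2.21, 4.36 and 3.39 (0.24, SE 0.45). *Terf2*, *Acd*, *Pot1a* and *Pot1b* were at −0.00 (SE 0.21), −0.01 (SE 0.21), 0.01 (SE 0.22) and 0.06 (SE 0.50). Telomerase and CST genes had 14 of 15 members tested, with a median of 0.04 and 0 free of overlap. *Tert*, the catalytic subunit of telomerase, had 5 counts in all NX saline libraries and 1 in all NX JV101 libraries and was not tested. DNA damage genes had a median of −0.03, p53 and senescence genes 0.14, hypertrophy genes 0.01 and extracellular matrix genes −0.04. Over the fits without 1 library the p53 and senescence median stayed above 0 (0.06 to 0.28), while those of telomerase and CST (−0.01 to 0.07), DNA damage (−0.07 to 0.06), hypertrophy (−0.07 to 0.08) and matrix genes (−0.49 to 0.22) took both signs.

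The same contrast after sham surgery, which shares no library with this one, gave 0 passing genes by edgeR (0%, 245 at an unadjusted p under 0.05, 1.70%). The test of the difference between the 2 contrasts also gave 0 (0%, 256 at an unadjusted p under 0.05, 1.78%). Over all genes 53.2% had the same sign in both, and over the 196 genes lower at p under 0.05 after nephrectomy 65.3% did, against 49.0% of the 149 higher ones. Across the 14412 genes, which are not independent replicates, the log2 fold changes had a Pearson r of −0.005 and a Spearman correlation of 0.093. The Spearman correlation was 0.333 over the 196 lower genes and −0.152 over the 149 higher ones. In 27 genes (0.187%) the JV101 libraries lay below the saline libraries in both surgeries, and in 16 (0.111%) above. The 27 included the mesothelial genes *Lrrn4*, *Msln* and *Upk3b*, and also *Gpc3* and *Lrp2*. *Wnt2b*, a Wnt ligand gene (−1.97 after nephrectomy and −1.07 after sham surgery), *Xpnpep2*, an aminopeptidase gene (−1.25 and −1.54), and the phosphatase gene *Ptpn13* (−0.70 and −0.66) were among them too. *Lrrn4* after sham surgery was at 8.03, 7.16 and 9.998 CPM with saline and at 3.64, 4.79 and 3.74 with JV101 (−1.06, SE 0.31). The mesothelial list as a whole had 14 of 18 members lower after sham surgery, with a median of −0.28. *Krt8* was at 0.00 and *Krt19* at −0.26 (SE 0.33) there, and the test of the difference gave −1.35 (SE 0.47) for *Krt19*, which did not pass (edgeR, adjusted p = 1.00). *Neurl1a* was among the 16 genes above in both.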

How the data were processed

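Per the labels' protocols, RNA of isolated cardiomyocytes was purified with an RNeasy kit and 1.3 µg per sample was made into polyA libraries. Per the submitters' processing notes, fastp, HISAT2 and HTSeq were run, with GRCm39 as the build. The tool versions, the annotation and the strandedness were not given in the sources used here. For 22794 genes in 12 libraries the authors deposited counts per gene and FPKM. The deposited counts were used for the tests, and the deposited FPKM (log2 with a pseudocount of 1 or 0.1) as an alternative and for levels per length.

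Genes kept by filterByExpr (minimum count 10, minimum total 15) numbered 14412. After TMM scaling, they were fitted with edgeR's quasi-likelihood model over all 12 libraries in 4 groups of 3, with 2-sided F tests adjusted by Benjamini-Hochberg over all 14412 genes at 0.05. The size of a log2 fold change over the root of its F gave its standard error. Library measures were compared by exact permutation. The scripts were tested on simulated data. Tools were edgeR 4.0.16, DESeq2 1.42.0 and limma 3.58.1 in R 4.3.3.

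The comparison and the 47 gene lists (872 genes) were chosen with earlier results of these data known, so no adjusted p over a list is given. Genes were named by rule: where fewer than 12 passed in a direction, the 12 of smallest p at 1 CPM or more, up to 4 of each list by p, all shelterin genes, the 3 of smallest p in each direction of the interaction, DESeq2 calls, the 6 most abundant nuclear genes and the 6 of smallest p in each direction at 100 CPM or more. Other genes were chosen after their values were seen. The values of 1 gene under this rule are not reported here. Gene symbols matched RefSeq of GRCm38.p6 in 22096 of 22794 cases (96.9%), and its promoter windows are the only positions given. Alternatives were RLE factors, DESeq2, no filter or one of 5 CPM in 3 libraries, only the NX libraries, a replicate block, leaving out mitochondrial genes, log2 FPKM, an adjusted p of 0.1, and leaving out each library. A limma voom fit with sample weights was added after the data were seen.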

Additional observations from a re-analysis of the deposited data

Results flagged for a closer look

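*Spats2l* had opposite differences with JV101 in the 2 surgeries, without overlap in either. After nephrectomy it was at 3.93, 3.16 and 5.36 CPM with saline and at 7.05, 5.58 and 6.38 with JV101 (log2 fold change 0.62, SE 0.20), so all JV101 libraries were higher. After sham surgery it was at 5.88, 5.89 and 6.47 CPM with saline and at 4.35, 4.34 and 4.28 with JV101 (−0.49, SE 0.20), so all were lower. The difference between the 2 was 1.11 (SE 0.29), between 0.945 and 1.30 without any 1 of the 12 libraries, and did not pass edgeR's test (adjusted p = 1.00).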

How the results depend on the processing

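The count of genes passing edgeR's test was 0 under each edgeR and limma alternative run, leave-one-out fits and an adjusted p of 0.1 included, and 4 under DESeq2. At an unadjusted p under 0.05 the higher genes (149) became 52 with a filter of 5 CPM in 3 libraries, 303 and 251 on log2 FPKM with pseudocounts of 1 and 0.1, and 704 with voom sample weights, where NX JV101 replicate 3 had a weight of 4.01. The lower genes (196) became 324 under DESeq2, 80 with the 5 CPM filter, 61 and 69 on log2 FPKM and 792 with voom weights. Higher genes made up 43.2% of these and 83.2% and 78.4% on log2 FPKM, where the median of all genes moved from 0.01 to 0.21 and 0.32. Leaving out 1 library gave 93 to 210 higher and 111 to 217 lower genes, with both minima without NX JV101 replicate 3. It gave 1132 to 1624 genes lying above and 877 to 1565 lying below, more than the 652 and 532 because 3 against 2 libraries overlap less often by construction. The labels share replicate numbers across groups. Same-numbered libraries deviated together with correlations of 0.173, −0.017 and −0.034, and 1 of 3 correlated best with its own number. With 3 libraries a group, this check cannot decide whether the numbers pair the samples. A fit with the replicate number as a block called 0 genes, with 112 higher and 151 lower at an unadjusted p under 0.05.

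Of 81 named genes followed through up to 16 alternatives, 72 kept their sign in every one run. The 9 others lie near 0 apart from *Iigp1* and *Terf1*. In fits without 1 library, the lowest and highest values were −0.30 and 2.45 for *Iigp1* (lowest without NX JV101 replicate 3), −0.0032 and 0.50 for *Terf1*, −0.16 and 0.20 for *Terf2*, −0.14 and 0.13 for *Acd*, −0.15 and 0.15 for *Pot1a* and −0.24 and 0.54 for *Pot1b*. For *Myh6* they were −0.34 and 0.15, for *Atp2a2* −0.22 and 0.047 and for *Actc1* −0.40 and 0.12. On log2 FPKM with pseudocounts of 1 and 0.1, *Terf2* was at 0.24 and 0.34, *Acd* at 0.24 and 0.32, *Myh6* at 0.132 and 0.132, *Atp2a2* at 0.192 and 0.192 and *Actc1* at 0.191 and 0.191. With voom weights *Terf2* was at 0.0437, *Pot1a* at −0.0765 and *Myh6* at 0.0904. *Terf2* was at 0.0133 with no filter and 0.00364 with the replicate block, and *Pot1a* at −0.00735 with RLE factors, −0.00782 under DESeq2 and −0.00744 with the 5 CPM filter. The cause of these changes of sign was not tested. Of the 47 list medians 14 kept their sign throughout, among them mesothelium (−1.33 to −0.32), neutrophil (−2.30 to −0.19) and atrial markers (0.79 to 1.16), and 33 did not. The depth of 8.86 M nuclear counts in NX saline replicate 3 limits genes under 1 CPM most, B cell and neutrophil markers among them.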

Other observations

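Other genes with small p in the test of the difference between the 2 surgeries also had opposite directions. *Slc16a13*, a monocarboxylate transporter family gene, was at 3.20, 3.08 and 3.47 CPM in NX saline and at 1.77, 2.45 and 1.47 in NX JV101 (−0.77, SE 0.29). After sham surgery it was at 0.70 (SE 0.30) with JV101, and the difference was −1.47 (SE 0.42). The uncharacterised transcript *Gm30735* was at −1.24 (SE 0.40) after nephrectomy and 0.75 (SE 0.40) after sham surgery. *S100a8* was at −2.99 and 2.47 in the same order, a difference of −5.46 (SE 1.43). Leaving out any 1 of the 12 libraries kept that difference between −6.44 and −4.19. None of the 3 passed (edgeR, adjusted p = 1.00).

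*Afp*, the fetal albumin-like gene of liver and yolk sac, had 2, 1 and 0 counts in NX saline replicates 1 to 3. It had 565, 121 and 0 in NX JV101, so 2 of the 3 NX JV101 libraries carried it and the third had none. In sham libraries it was at 1.41, 9.87 and 0 CPM with saline and at 0 in all 3 with JV101.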
